A study of Mus musculus with 16 samples.

Results

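Astrocytes clear glutamate and potassium from the space around neurons, move water and bicarbonate across their membranes, and share ions and metabolites through gap junctions, and 10 genes that carry out this work were followed in mouse spinal cord. They were chosen by name, by a rule that uses no expression value but was set with earlier results of these data known, and are Aqp4, Kcnj10, Slc1a2, Slc1a3, Glul, Gja1, Gjb6, Aldh1l1, Aldoc and Slc4a4. All 10 are among the 24411 genes in the deposited tables, and all 10 are among the 16091 genes tested, which averaged more than 1 TPM (transcript abundance corrected for length and scaled alike in each library) in at least 1 condition. The question was how their RNA differed between injured and uninjured cord, and between injured cord with and without atorvastatin.

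RNA was sequenced from the spinal cords of 16 female C57BL/6J mice. Of these, 14 had a lateral compression spinal cord injury (SCI) at 12 wk of age, made by closing forceps to a gap of 0.25 mm at the mid-thoracic level, and received daily injections from 2 wk post-injury for 4 wk. In the SCI + Atorvastatin group (n = 7) the injections held atorvastatin, a cholesterol-lowering drug, at 10 mg/kg in a vehicle of DMSO, PEG 400, Tween 80 and saline. In the SCI + Vehicle group (n = 7) they held the same vehicle alone. The Uninjured Control group (n = 2) had no injury and no injections, and its mice are 12 wk old by the labels, while the injured mice were 18 wk old when the tissue was taken at 6 wk post-injury. The study's methods give an older age for the Uninjured Control mice than the labels do, still below that of the injured mice. Injury, age, anaesthesia and injections therefore differ together between the Uninjured Control group and both SCI groups, and their effects cannot be told apart. Each library came from a 5 mm piece of cord of 1 mouse, centred on the injury or the matching level.

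Aquaporin Aqp4 and the potassium channel Kcnj10 sit together on astrocyte endfeet around blood vessels, where water and potassium leave the tissue. The transporters Slc1a2 and Slc1a3 take up glutamate released at synapses, and glutamine synthetase, encoded by Glul, converts it to glutamine, which neurons reuse. Gja1 and Gjb6 encode the connexins that couple astrocytes to each other, and Aldh1l1, Aldoc and Slc4a4 serve folate metabolism, glycolysis and bicarbonate transport.

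The libraries held 14823292 to 25579826 counts on genes, and a count of 0 allows up to 3 counts, or 0.117 to 0.202 CPM (counts scaled to library size), counting error only. None of the 10 genes came near that floor, the lowest count of any being 687. The Uninjured Control libraries stood apart from the others, with counts in 12732 and 12356 genes against 16399 to 19338 in the SCI mice. They also carried liver transcripts, and counts of albumin (Alb) were 60169 and 10471 in replicates 1 and 2 of that group but no more than 81 in the SCI mice. For the 10 genes and most lists of related genes, results against this group are therefore given with and without each of its mice. A fit with 1 Uninjured Control mouse holds no spread within that group, so its log2 fold change is the value to read. Summed TPM of 9 microglia or macrophage markers was 202 to 303 in the Uninjured Control group, 2519 to 3620 in SCI + Vehicle and 2914 to 4302 in SCI + Atorvastatin. The sum of 11 astrocyte markers outside the 10 genes was 8406 to 9846, 30825 to 44666 and 36239 to 48161 in the same order. Without Apoe, which macrophages also express, it was 1888 to 2518, 2763 to 3076 and 2802 to 3368. Much of that remaining sum was Clu, which averaged 836, 1615 and 1698 TPM in the same order. Only 5 of the 11 markers had a log2 fold change above 0 in each SCI group against the Uninjured Control group (medians -0.11 and -0.10). All 11 had counts in every group, as had the 10 neuron markers, whose summed TPM was 7686 to 9340 in the Uninjured Control group, 4998 to 7462 in SCI + Vehicle and 4731 to 6307 in SCI + Atorvastatin. These shifts run along with the comparisons below, and their part in the results was not tested. In whole tissue, fewer cells of a type and less RNA per cell cannot be told apart.

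In TPM, which corrects for transcript length and so allows genes to be ranked against each other, Aldoc was the highest of the 10 genes in every group. Its mean level was 1350 TPM in the Uninjured Control group, 1180 in SCI + Vehicle and 1087 in SCI + Atorvastatin, which placed it 70th, 77th and 80th among all genes. Slc1a2 and Glul followed in the Uninjured Control group, at means of 1076 and 968 TPM. Aldoc and Slc1a2 overlapped in their ranges there, as did Slc1a2 and Glul, while Glul lay above Kcnj10 (409) in every mouse. Kcnj10 ranked above Aqp4 (304) in the Uninjured Control group, with no overlap, and below Aqp4 and Gja1 in both SCI groups, where its range overlapped that of Gja1. Aqp4 moved from place 466 among all genes to 132 in SCI + Vehicle and 113 in SCI + Atorvastatin, and Slc1a3 from 2977 to 1485 and 1458. The genes with the lowest levels were Slc1a3 (58.4 TPM) and Gjb6 (56.0) in the Uninjured Control group, whose ranges overlapped, and Gjb6 (67.5) and Aldh1l1 (64.3) in SCI + Vehicle, whose ranges overlapped too.

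**Figure D1:**
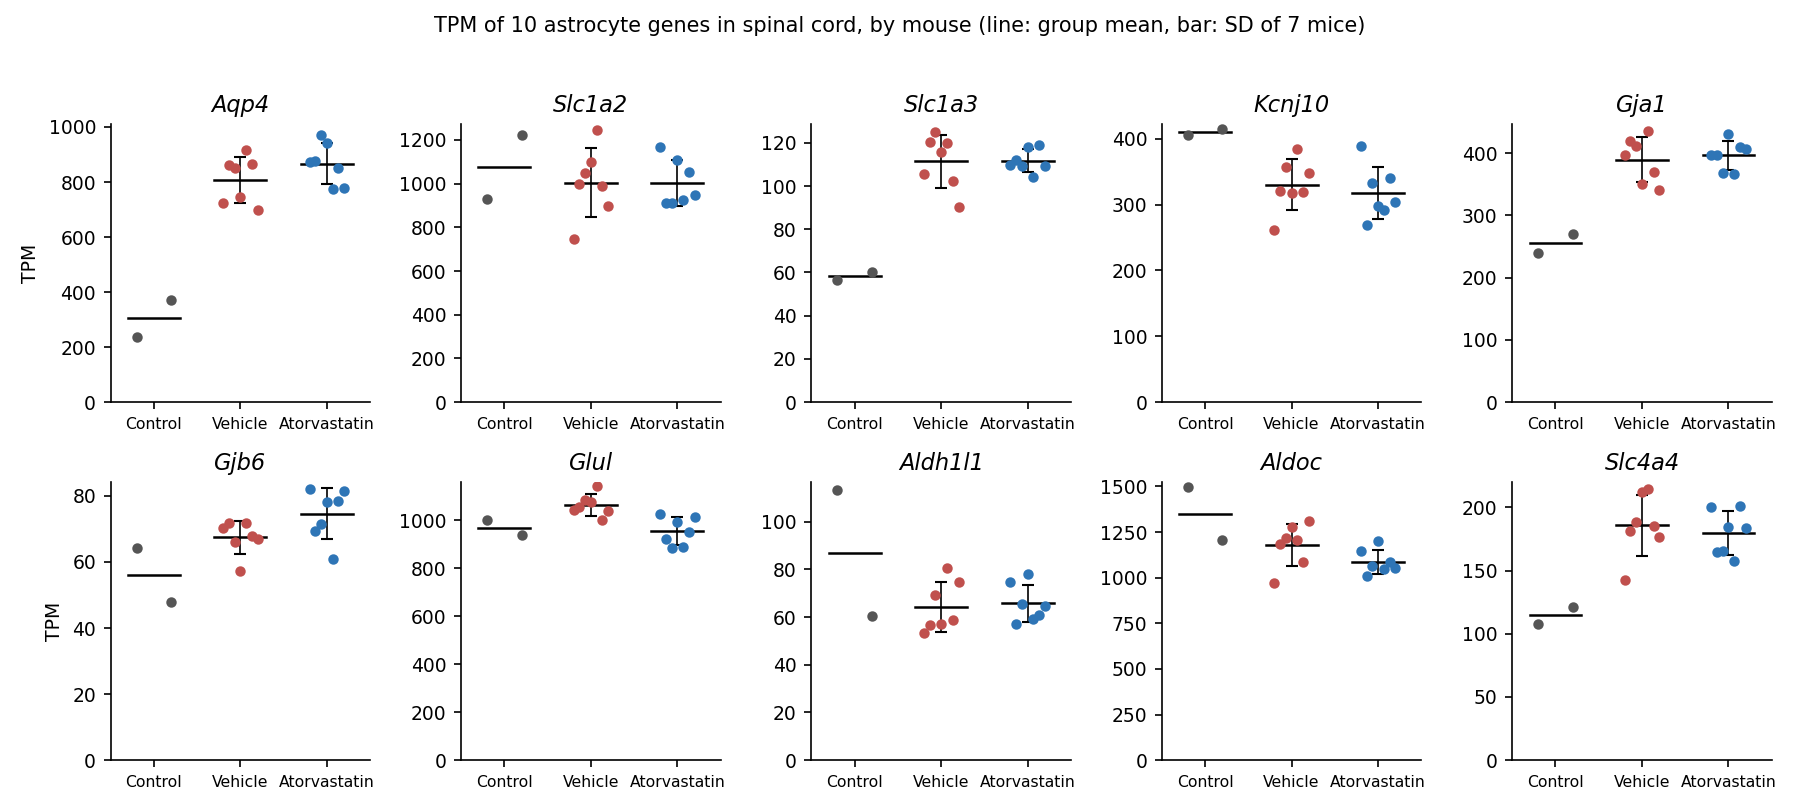
Level of each of the 10 genes in TPM, with 1 panel per gene, 1 point per mouse, a horizontal line for the group mean and error bars for the SD of the 7 mice of an SCI group. Aqp4, Slc1a3, Gja1 and Slc4a4 were higher in every SCI mouse than in both Uninjured Control mice, and Kcnj10 was lower, while the SCI + Vehicle and SCI + Atorvastatin points overlap in every panel.

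Against the Uninjured Control group, the 10 genes did not all move in the same direction. Tests were made on counts with edgeR, and a gene was called when it was more than 25% higher or 20% lower with an adjusted p below 0.05. Among the 10 genes, 3 rose in SCI + Vehicle (Aqp4, Slc1a3 and Gja1), 1 fell (Kcnj10) and 6 were not called, where 19.8% of all genes tested rose and 9.55% fell. In SCI + Atorvastatin vs. Uninjured Control the 3 rose again, Kcnj10 and Aldoc fell and 5 were not called, where 24.9% of all genes rose and 14% fell. For a set of 10 genes, these counts lie near the shares of all genes. Because the 2 Uninjured Control mice serve in each comparison, the values are given side by side and not as separate support. The median log2 fold change of the 10 genes was -0.07 with vehicle and -0.05 with atorvastatin, beside 0.17 and 0.21 over all genes tested. When limma's voom gave each group its own quality weight, only Aqp4 was called in SCI + Vehicle and none of the 10 in SCI + Atorvastatin, and over all genes 17 rose and 115 fell in the first and 18 and 127 in the second.

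**Figure D2:**
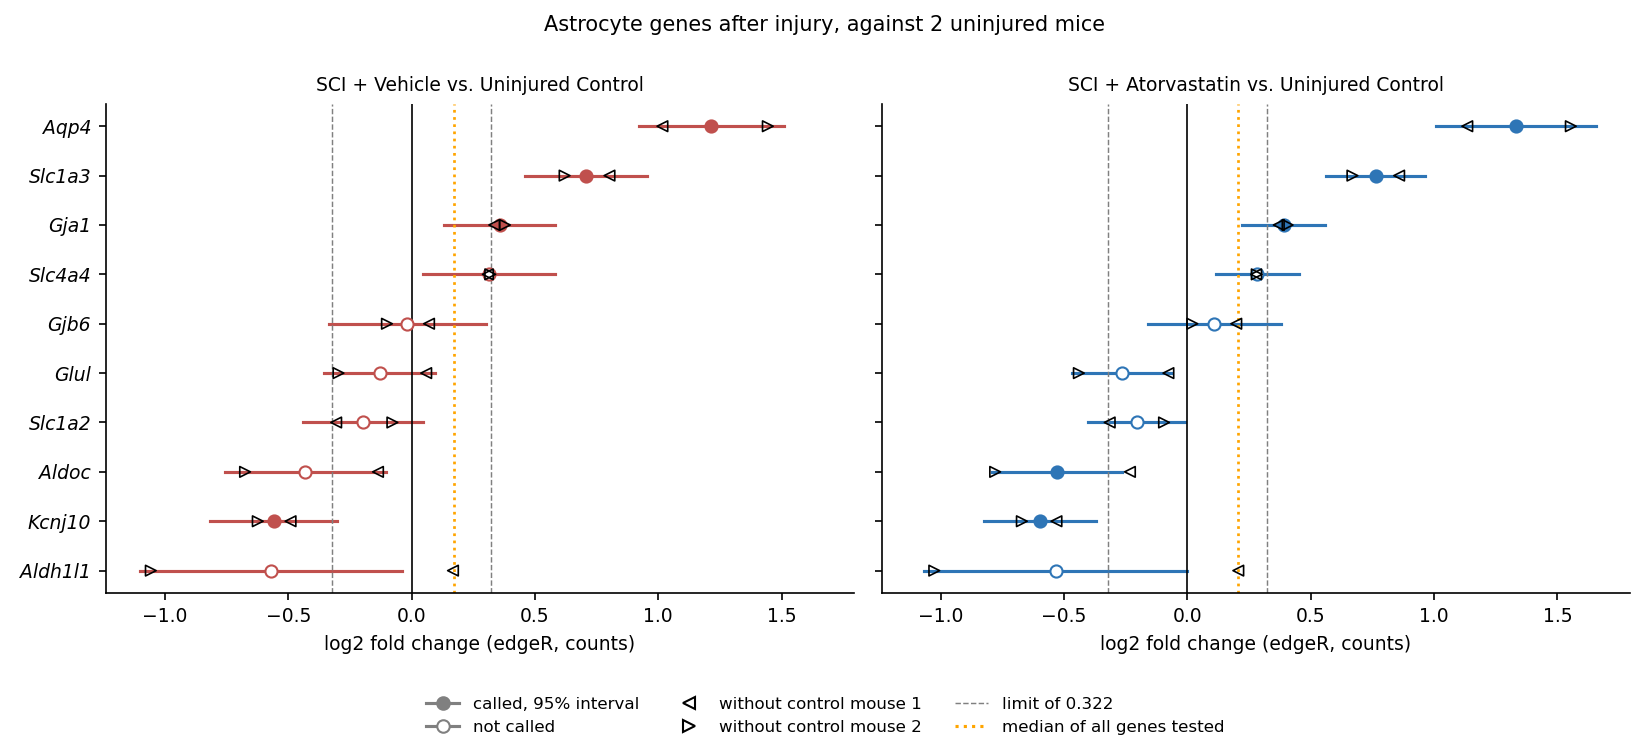
Log2 fold change of each gene against the Uninjured Control group from edgeR, SCI + Vehicle and SCI + Atorvastatin side by side, with 95% confidence intervals. Left- and right-pointing triangles give the value without Uninjured Control replicate 1 and 2, the dashed lines mark the fold limit and the dotted orange line the median of all genes tested. Aqp4 lies farthest above 0, and the triangles of Aldh1l1 lie on opposite sides of 0.

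Aqp4, the main water channel of astrocytes, showed the largest rise of the 10 genes in both comparisons. Its level was 238 and 370 TPM in the Uninjured Control mice, 698 to 915 TPM (median 850) in SCI + Vehicle and 774 to 973 TPM (median 872) in SCI + Atorvastatin. Every SCI mouse was therefore above both Uninjured Control mice, and the treatments overlapped. The rise was 2.32-fold in SCI + Vehicle (log2 fold change 1.21, SE 0.133, edgeR adjusted p = 0.000158) and 2.52-fold in SCI + Atorvastatin (1.33, SE 0.145, edgeR adjusted p = 0.000101). Without Uninjured Control replicate 1 the log2 fold changes were 1.02 and 1.13, and without replicate 2 they were 1.44 and 1.55. Aqp4 lies on chromosome 18 (GRCm38, chr18:15389496-15410982, minus strand).

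Kcnj10, the inward rectifier that carries potassium into astrocytes, moved the other way. Its level was 405 and 414 TPM in the Uninjured Control mice, 261 to 384 TPM (median 321) in SCI + Vehicle and 269.5 to 388 TPM (median 303) in SCI + Atorvastatin. The 14 SCI mice were all below both Uninjured Control mice, here by a narrow margin. On counts it fell by 0.56 on the log2 scale in SCI + Vehicle (SE 0.116, edgeR adjusted p = 0.00508), which is 1.47-fold lower, and its log2 fold change in SCI + Atorvastatin was -0.60 (SE 0.102, edgeR adjusted p = 0.0012). Without Uninjured Control replicate 1 the log2 fold changes were -0.49 and -0.53, and without replicate 2 they were -0.62 and -0.67. On log2(TPM + 1) the change in SCI + Vehicle was -0.32 and was not called (limma adjusted p = 0.103), and in SCI + Atorvastatin it was -0.37 and was called (limma adjusted p = 0.0406).

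Slc1a3, the glutamate transporter shared by astrocytes and radial glia, rose, and Slc1a2, the more abundant transporter of the pair, was not called. Slc1a3 stood at 56.7 and 60.2 TPM in the Uninjured Control mice, at 90.3 to 125 TPM (median 116) in SCI + Vehicle and at 104 to 119 TPM (median 110) in SCI + Atorvastatin. No SCI mouse overlapped the Uninjured Control mice. The rise was 1.63-fold in SCI + Vehicle (log2 fold change 0.71, SE 0.112, edgeR adjusted p = 0.00117). In SCI + Atorvastatin it was 1.70-fold (0.76, SE 0.0904, edgeR adjusted p = 0.000153). Without Uninjured Control replicate 1 the log2 fold changes were 0.80 and 0.86, and without replicate 2 they were 0.62 and 0.67. Slc1a2 stood at 930.9 and 1220 TPM in the Uninjured Control mice, 747 to 1246 TPM (median 999.65) in SCI + Vehicle and 910 to 1166 TPM (median 948) in SCI + Atorvastatin. The groups overlapped throughout, and the log2 fold changes of Slc1a2 were -0.20 (SE 0.110, edgeR adjusted p = 0.206) and -0.21 (SE 0.0881, edgeR adjusted p = 0.0903).

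Gja1, which encodes the most widely expressed astrocyte connexin, rose, whereas its partner Gjb6 was not called. The level of Gja1 was 239.67 and 271 TPM in the Uninjured Control mice, 341.59 to 436 TPM (median 397) in SCI + Vehicle and 366.05 to 432 TPM (median 398) in SCI + Atorvastatin. The SCI mice were again all above the Uninjured Control mice. The rise was 1.28-fold in SCI + Vehicle (log2 fold change 0.36, SE 0.102, edgeR adjusted p = 0.0235) and 1.31-fold in SCI + Atorvastatin (0.39, SE 0.0754, edgeR adjusted p = 0.00243). Leaving out Uninjured Control replicate 1 gave 0.33 in SCI + Vehicle, which missed the limit (edgeR adjusted p = 0.0741). Gjb6 had 64.2 and 47.8 TPM in the Uninjured Control mice, 57.4 to 71.9 TPM (median 67.9) in SCI + Vehicle and 60.8 to 82.0 TPM (median 78.3) in SCI + Atorvastatin. Its groups overlapped, and its log2 fold changes on counts were -0.02 (SE 0.143, edgeR adjusted p = 0.951) and 0.11 (SE 0.122, edgeR adjusted p = 0.514). On log2(TPM + 1) the value of Gjb6 in SCI + Vehicle was 0.28, with the opposite sign and also not called.

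The sequence just before the start site is shown for the called genes Slc1a3, Gja1 and Kcnj10, to set the letters of 2 genes that rose beside those of 1 that fell. The sequences are RefSeq's (GRCm38.p6, 250 bases, 5′ to 3′ on the gene's strand), and capitals mark a match to TTCNNNGAA, a STAT motif, in Slc1a3 (chr15:8710808-8711057, minus strand) and to TGANTCA, an AP-1 motif, in Gja1 (chr10:56377050-56377299, plus strand). Kcnj10 (chr1:172340960-172341209, plus strand) holds no match.
Slc1a3: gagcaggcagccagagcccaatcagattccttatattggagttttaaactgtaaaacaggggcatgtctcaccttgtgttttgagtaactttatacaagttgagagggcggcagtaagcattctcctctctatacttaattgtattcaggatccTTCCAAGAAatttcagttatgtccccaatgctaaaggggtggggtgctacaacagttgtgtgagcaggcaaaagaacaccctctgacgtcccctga
Gja1: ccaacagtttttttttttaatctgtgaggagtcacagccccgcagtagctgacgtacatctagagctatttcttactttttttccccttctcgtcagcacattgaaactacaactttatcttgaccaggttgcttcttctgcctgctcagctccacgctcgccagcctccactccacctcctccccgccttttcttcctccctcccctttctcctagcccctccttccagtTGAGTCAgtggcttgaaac
Kcnj10: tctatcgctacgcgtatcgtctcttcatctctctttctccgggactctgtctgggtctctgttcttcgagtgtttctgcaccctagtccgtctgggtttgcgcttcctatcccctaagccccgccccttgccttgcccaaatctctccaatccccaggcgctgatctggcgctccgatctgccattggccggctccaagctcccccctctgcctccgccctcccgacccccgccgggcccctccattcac
The first base of the match lies 96 bases before the start of Slc1a3 and 19 bases before that of Gja1. Both strands were searched. Of 11 annotated starts of 9 of the 10 genes, 2 held the STAT motif, of Slc1a3 and Aldoc, and 1 held the AP-1 motif, against 7.02% and 6.75% of 32851 promoters. Neither ACAATG, a SOX motif, found in 10.7% of promoters, nor the palindromic NFI motif, found in 1.22%, was present in any of the 11. A match is only a run of letters and binding was not measured.

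Glul, which encodes the enzyme that makes glutamine from glutamate and ammonia, was close to its Uninjured Control level in SCI + Vehicle. It had 1000.25 and 936 TPM in the Uninjured Control mice, 999.91 to 1144 TPM (median 1056) in SCI + Vehicle and 883 to 1024 TPM (median 951) in SCI + Atorvastatin. In TPM the SCI + Atorvastatin range enclosed both Uninjured Control mice, whereas in CPM, at 895 to 973 against 996 and 1272, every SCI + Atorvastatin mouse was below both. On counts the log2 fold change of Glul with vehicle was -0.13 (SE 0.102, edgeR adjusted p = 0.372) and with atorvastatin -0.27 (SE 0.0906, edgeR adjusted p = 0.0396), the latter under the fold limit. In SCI + Atorvastatin it was -0.08 without Uninjured Control replicate 1 and -0.44 without replicate 2. On log2(TPM + 1) the SCI + Vehicle value of Glul was 0.13, of the opposite sign.

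Aldoc, the brain form of the glycolytic enzyme aldolase, fell in SCI + Atorvastatin and missed the limit in SCI + Vehicle. It stood at 1847 and 1274 CPM in the Uninjured Control mice, 1017 to 1392 CPM (median 1128) in SCI + Vehicle and 1013 to 1173 CPM (median 1067) in SCI + Atorvastatin. The Uninjured Control mice lay far apart, and replicate 2 fell within the SCI + Vehicle range. The log2 fold change of Aldoc with vehicle was -0.43 (SE 0.148, edgeR adjusted p = 0.0503) and with atorvastatin -0.53 (SE 0.119, edgeR adjusted p = 0.00563). With Uninjured Control replicate 1 left out the values were -0.14 and -0.23, both under the fold limit. Without replicate 2 they were -0.68 and -0.78. On log2(TPM + 1) the SCI + Atorvastatin value was -0.31, under the fold limit.

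Aldh1l1, a folate enzyme much used to mark astrocytes, differed more between the Uninjured Control mice than between any groups. Its counts were 3515 and 1669 in Uninjured Control replicates 1 and 2, or 177 and 75.8 CPM, against 75.0 to 98.5 CPM (median 82.0) in SCI + Vehicle and 76.1 to 103 CPM (median 84.1) in SCI + Atorvastatin. Replicate 1 was above every SCI mouse and replicate 2 lay at their lower end. Replicate 1 also held more liver transcripts, with 10 liver markers summing to 7957 TPM against 2424 in replicate 2. The part of these transcripts in its Aldh1l1, Glul and Aldoc values was not tested. The log2 fold changes of Aldh1l1 were -0.57 (SE 0.240, edgeR adjusted p = 0.0992) and -0.53 (SE 0.239, edgeR adjusted p = 0.105). Without replicate 1 they were 0.17 and 0.21, and without replicate 2 they were -1.06 and -1.03. Its direction therefore rests on which Uninjured Control mouse is used.

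Slc4a4, the sodium bicarbonate cotransporter, was higher in every SCI mouse than in both Uninjured Control mice but missed the limits on counts. Its level was 514 and 518 CPM in the Uninjured Control mice, 532 to 734 CPM (median 651) in SCI + Vehicle and 589 to 664 CPM (median 626) in SCI + Atorvastatin. The lowest SCI + Vehicle mouse stood just above the Uninjured Control mice. The log2 fold change of Slc4a4 with vehicle was 0.31 (SE 0.121, edgeR adjusted p = 0.0744), and with atorvastatin 0.28 (SE 0.0754, edgeR adjusted p = 0.0134), under the fold limit. On log2(TPM + 1) it was called in both, at 0.68 in SCI + Vehicle (limma adjusted p = 0.00901) and 0.64 in SCI + Atorvastatin (limma adjusted p = 0.00228).

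Values on counts and on TPM differed in level, by an amount that varied from gene to gene. The median log2 fold change over all genes tested in SCI + Vehicle was 0.17 on counts and 0.49 on log2(TPM + 1), and in SCI + Atorvastatin 0.21 and 0.52. Taken relative to that median in SCI + Vehicle, Aqp4 was at 1.04 on counts and 0.95 on TPM, Slc1a3 at 0.54 and 0.42, Gja1 at 0.19 and 0.12, and Slc4a4 at 0.14 and 0.20. Kcnj10 was at -0.73 and -0.81, Aldh1l1 at -0.74 and -0.86, Aldoc at -0.60 and -0.68, Slc1a2 at -0.37 and -0.59, Glul at -0.30 and -0.35, and Gjb6 at -0.19 and -0.21. Relative to the median, 4 of the 10 genes were above and 6 below on both scales. By definition a median has as many of all genes tested above it as below. In CPM, 5 of the 10 genes in SCI + Vehicle and 7 in SCI + Atorvastatin did not overlap the Uninjured Control mice, where 35.6% and 44.0% of all genes tested did not.

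Dividing one gene by another within the same mouse removes the scaling of the library. These pairs were picked with their values in view. The TPM of Aqp4 over that of Kcnj10 was 0.589 and 0.895 in the Uninjured Control mice, 2.01 to 2.77 (median 2.38) in SCI + Vehicle and 2.24 to 3.25 (median 2.65) in SCI + Atorvastatin, so Kcnj10 exceeded Aqp4 in both Uninjured Control mice and in no SCI mouse. Slc1a3 over Slc1a2 was 0.0493 to 0.0609 in the Uninjured Control mice, 0.0963 to 0.142 in SCI + Vehicle and 0.0942 to 0.123 in SCI + Atorvastatin, again with no overlap between uninjured and injured. Gja1 over Gjb6 was 3.73 and 5.67 in the Uninjured Control mice, 5.11 to 6.23 in SCI + Vehicle and 4.85 to 6.02 in SCI + Atorvastatin, and these ranges overlapped.

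**Figure D3:**
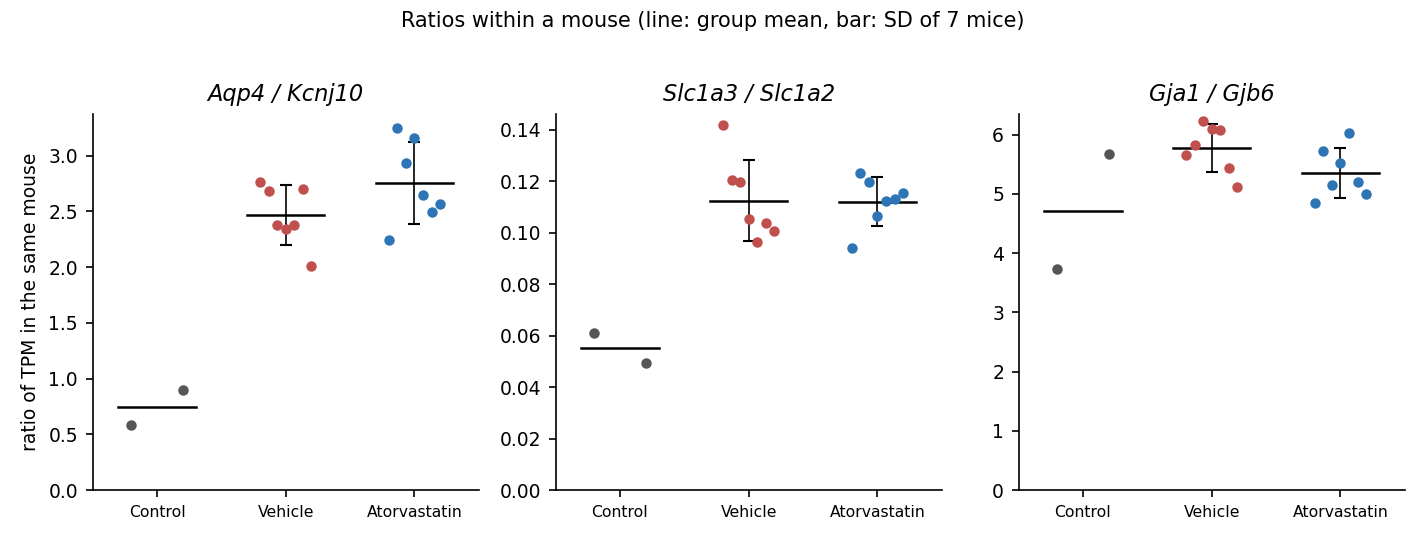
Ratio of the TPM of 2 genes within the same mouse for Aqp4 over Kcnj10, Slc1a3 over Slc1a2 and Gja1 over Gjb6, with 1 point per mouse, a horizontal line for the group mean and error bars for the SD of the 7 mice of an SCI group. The first 2 ratios separate the Uninjured Control mice from all 14 SCI mice, the third does not, and the treatments overlap in all.

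Between the treatments, 0 of the 10 genes were called in SCI + Atorvastatin vs. SCI + Vehicle at the study's limit of an unadjusted p below 0.001 with the same fold limit, where 0.106% of all genes tested (17 genes) were. By edgeR's quasi-likelihood test 1 of the 10, Glul, had an unadjusted p below 0.05, where 7.03% of all genes did, and DESeq2 called 0 too. The estimates were close to 0, with 5 of the 10 genes lower in SCI + Atorvastatin and a median of -0.01, beside -0.00 over all genes. The 95% confidence intervals of 9 of the 10 covered no change, and over all 10 the bounds ran from -16.8% (Glul) to 20.5% (Gjb6). An interval that covers 0 does not show that the groups are alike.

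Glul was the exception among the 10 genes. It had 1009 to 1091 CPM (median 1043) in SCI + Vehicle and 895 to 973 CPM (median 938) in SCI + Atorvastatin. In CPM the highest SCI + Atorvastatin mouse was below the lowest SCI + Vehicle mouse, a separation that 0.087% of all genes tested showed, and in TPM the ranges overlapped. The estimate for Glul was -10.5% (log2 fold change -0.16, SE 0.0507, 95% interval -0.27 to -0.05), with an unadjusted p of 0.00486 and an adjusted p of 0.680 in edgeR, so it failed the correction over all genes. Its adjusted p ranged from 0.204 to 1.0 over the alternatives, and its log2 fold change from -0.18 to -0.15. The next gene by p was Aldoc, at -0.12 (SE 0.0674, edgeR unadjusted p = 0.0889).

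**Figure D4:**
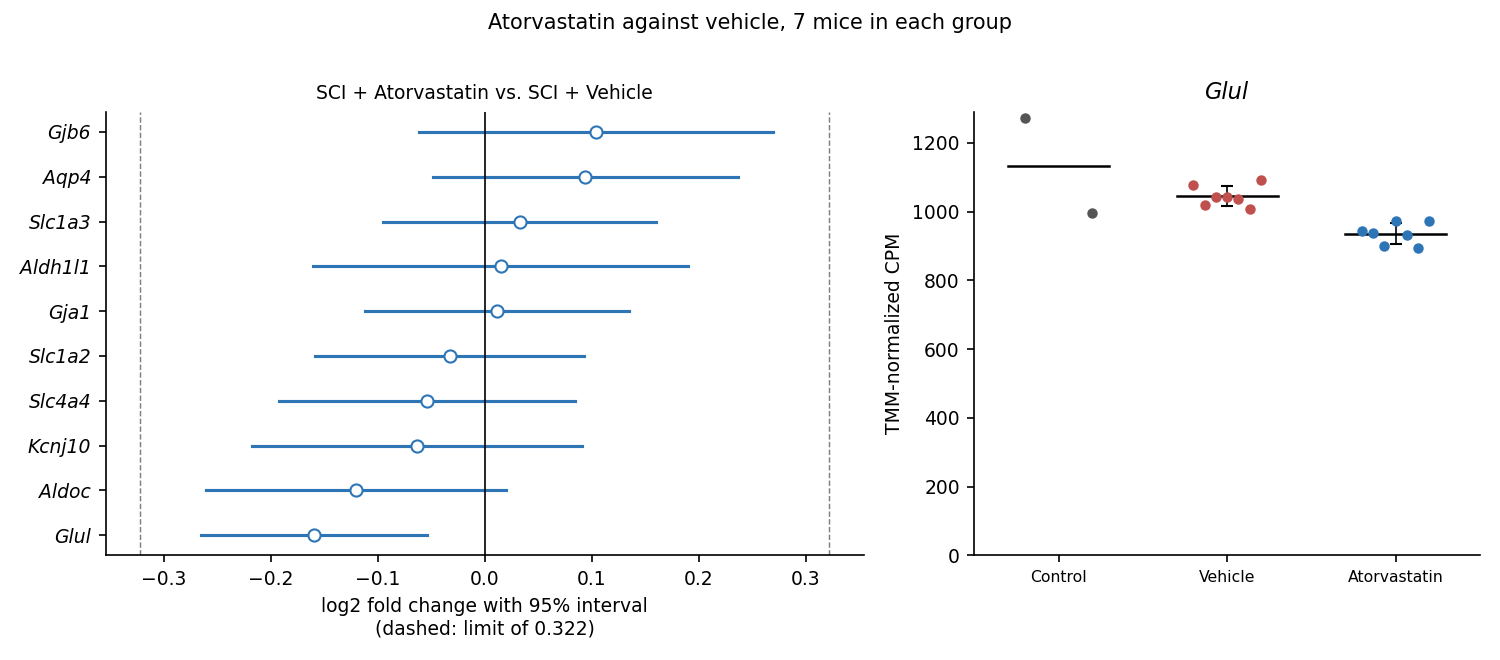
Comparison of SCI + Atorvastatin with SCI + Vehicle for the 10 genes, with the edgeR log2 fold changes and their 95% confidence intervals and, beside them, the TMM-normalized CPM of Glul in each mouse with the group mean and SD. Dashed lines mark the fold limit. The interval of Glul alone lies below 0, and its 7 SCI + Atorvastatin mice lie below its 7 SCI + Vehicle mice.

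The spread between mice of a treatment group was small for all 10 genes. The coefficient of variation in CPM ran from 2.84% for Glul to 10.6% for Aldoc in SCI + Vehicle (median 7.93%) and from 3.28% for Glul to 10.3% for Aqp4 in SCI + Atorvastatin (median 5.60%). Across the 14 SCI mice, after centring within each group, none of the 45 pairs of genes had an adjusted permutation p below 0.05 in log2 CPM, and Pearson's r ran from -0.52 to 0.77 (median 0.10). The closest pair was Slc1a2 and Slc4a4, with r = 0.77 (permutation p = 0.00172, adjusted p = 0.0547), rho = 0.65 (permutation p = 0.0136) and r = 0.69 without the 2 mice farthest from the median of Slc1a2. Within SCI + Vehicle r was 0.90 and within SCI + Atorvastatin 0.47. The 10 genes share tissue, library and depth. The other 15921 genes were ranked by their correlation with the mean of the 10 over the same mice. Apc (r = 0.85), Surf6 (0.82), Carkd (0.80), Cxx1b (0.80) and Zfp788 (0.80) came highest. No chance level was worked out for the highest of so many values over 14 mice.

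Other astrocyte genes with related work were read from lists, and all of their genes were tested. None of them was called between the treatments. The counts are to be read against the shares of all genes given above. Counts of a list without each Uninjured Control mouse or on TPM were added after the data were seen, and their shares differ. With 1 Uninjured Control mouse a fit holds no spread within that group, so calls in it, and counts of them, are not support. Without replicate 1, 33.6% of all genes rose and 14.1% fell in SCI + Vehicle and 40.6% and 19.7% in SCI + Atorvastatin, and without replicate 2 these were 32.6% and 15.9%, and 39.7% and 21.4%. In SCI + Vehicle on log2(TPM + 1), 23.4% rose and 4.28% fell.

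The 9 genes of glutamate, glutamine, GABA and glycine transport held more called genes that fell than that rose. In SCI + Vehicle 4 fell, 0 rose and 5 were not called (median log2 fold change -0.42), and in SCI + Atorvastatin 5 fell, 1 rose and 3 were not called (median -0.59). Slc6a11, an astrocyte GABA transporter, had 370 and 545 CPM in the Uninjured Control mice, 220 to 330 CPM in SCI + Vehicle and 199 to 252 CPM in SCI + Atorvastatin, with no overlap, and its log2 fold changes were -0.86 (SE 0.176, edgeR adjusted p = 0.0046) and -1.06 (SE 0.132, edgeR adjusted p = 0.000207). Slc6a9, the glial glycine transporter, fell in both comparisons, with log2 fold changes of -0.69 (SE 0.146, edgeR adjusted p = 0.00538) and -0.75 (SE 0.171, edgeR adjusted p = 0.0061). Without Uninjured Control replicate 1 only 1 of the 9 fell and 1 rose in SCI + Vehicle, without replicate 2, 6 fell and 2 rose, and on log2(TPM + 1) 1 fell and 1 rose in limma. Slc6a9 was not called in SCI + Vehicle without replicate 1 or on TPM.

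Among 5 genes of potassium and sodium transport, 1 fell in SCI + Vehicle and 2 in SCI + Atorvastatin, and none rose. Kcnj16, whose channel subunit joins that of Kcnj10, had 76.7 and 109 CPM in the Uninjured Control mice, 51.5 to 70.0 CPM in SCI + Vehicle and 55.8 to 71.0 CPM in SCI + Atorvastatin. Its log2 fold changes were -0.63 (SE 0.163, edgeR adjusted p = 0.0148) and -0.56 (SE 0.149, edgeR adjusted p = 0.0138), and it was not called without Uninjured Control replicate 1 or on TPM. Without that mouse 0 of the 5 were called in edgeR, and without replicate 2, 2 fell in SCI + Vehicle and 3 fell and 1 rose in SCI + Atorvastatin.

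Of 7 genes for the anchoring of the water channel and for volume control, 3 rose and none fell in SCI + Vehicle, and in SCI + Atorvastatin 3 rose and 1 fell (medians 0.48 and 0.49). Dmd and Dag1, which encode dystrophin and dystroglycan of the complex that holds Aqp4 at the endfoot, rose by 0.87 (SE 0.122, edgeR adjusted p = 0.000608) and 0.78 (SE 0.163, edgeR adjusted p = 0.00541) in SCI + Vehicle, and by 0.91 (edgeR adjusted p = 0.000761) and 0.94 (edgeR adjusted p = 0.00079) in SCI + Atorvastatin. Dmd had 74.5 and 88.7 CPM in the Uninjured Control mice, 140 to 166 CPM in SCI + Vehicle and 132 to 189 CPM in SCI + Atorvastatin, with no overlap. Without Uninjured Control replicate 1, 3 of the 7 rose and 1 fell in each comparison, and without replicate 2, 5 rose and 0 fell. Both genes are also used by muscle and vessel cells. Summed TPM of 5 skeletal muscle markers was 32.4 to 74.4 in the Uninjured Control group, 5.21 to 607 in SCI + Vehicle and 4.74 to 2508 in SCI + Atorvastatin, and its part in these values was not tested.

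None of the 4 other glial connexins was called in either comparison. In SCI + Vehicle and SCI + Atorvastatin the log2 fold changes were 0.17 and 0.96 for Gjb2, 0.06 and -0.05 for the oligodendrocyte connexin Gjb1, and -0.34 and -0.27 for Gjc3. The smallest edgeR adjusted p values of these 3 were 0.317 and 0.101. Leaving out Uninjured Control replicate 1, 2 of the 4 fell in SCI + Vehicle and 2 fell and 2 rose in SCI + Atorvastatin, and without replicate 2, 1 rose in each.

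Among 5 genes of bicarbonate, glucose and lactate handling, 1 rose in each comparison and 1 fell in SCI + Atorvastatin. The gene that rose was Slc16a1, a lactate transporter, with 35.5 and 46.8 CPM in the Uninjured Control mice, 83.6 to 118 CPM in SCI + Vehicle and 114 to 147 CPM in SCI + Atorvastatin. Its log2 fold changes were 1.36 (SE 0.176, edgeR adjusted p = 0.000395) and 1.62 (SE 0.148, edgeR adjusted p = 3.98e-05). Without Uninjured Control replicate 1, 1 of the 5 rose and 0 fell in each comparison, so the fall in SCI + Atorvastatin was lost, and without replicate 2, 2 rose and 1 fell. Of 12 further genes of astrocyte metabolism, 0 were called in SCI + Vehicle by edgeR and 1 fell in SCI + Atorvastatin. These 12 include genes of glycogen and serine synthesis. In SCI + Vehicle 3 of the 12 had an unadjusted p below 0.05 in edgeR, as had 6602 of all 16091 genes tested. With Uninjured Control replicate 1 left out, 2 of the 12 rose and 3 fell in SCI + Vehicle and 3 rose and 3 fell in SCI + Atorvastatin, and without replicate 2, 0 were called in the first and 2 fell in the second.

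Of the 11 genes of astrocyte identity, 3 were higher, 1 lower and 7 not called in SCI + Vehicle (median -0.11). In SCI + Atorvastatin 3 were higher, 2 lower and 6 not called (median -0.10). Apoe, an apolipoprotein of astrocytes and macrophages, rose by 2.18 (SE 0.207, edgeR adjusted p = 8.93e-05) and 2.34 (SE 0.200, edgeR adjusted p = 3.11e-05). Clu, another apolipoprotein, rose by 0.79 (SE 0.107, edgeR adjusted p = 0.000521) and 0.87 (SE 0.125, edgeR adjusted p = 0.000434). Gpc5, a proteoglycan of astrocytes, had 88.8 and 90.7 CPM in the Uninjured Control mice, 43.7 to 56.6 CPM in SCI + Vehicle and 36.2 to 53.7 CPM in SCI + Atorvastatin. Its log2 fold changes were -0.86 (SE 0.136, edgeR adjusted p = 0.00119) and -1.07 (SE 0.150, edgeR adjusted p = 0.000395). Leaving out Uninjured Control replicate 1, 4 of the 11 rose and 3 fell in each comparison, and leaving out replicate 2, 3 rose and 3 fell.

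The reactive astrocyte list stood at another size of change. Of its 15 genes, 10 rose in SCI + Vehicle and 13 in SCI + Atorvastatin, none fell, and the medians were 2.63 and 2.83, the same with the 2 genes at 0 counts in the Uninjured Control group set to their lower bound. Serpina3n, a protease inhibitor induced in reactive astrocytes, had 47.6 and 64.4 CPM in the Uninjured Control mice, 375 to 502 CPM in SCI + Vehicle and 407 to 516 CPM in SCI + Atorvastatin, and its log2 fold changes were 3.03 (SE 0.173, edgeR adjusted p = 1.64e-05) and 3.11 (SE 0.155, edgeR adjusted p = 3.1e-06). S1pr3, a lipid receptor, had 0 counts in both Uninjured Control mice. Set against 3 counts per Uninjured Control library, it was 134.5-fold higher in SCI + Vehicle and 185.6-fold higher in SCI + Atorvastatin. That floor covers counting error only. Steap4, of the same list, had 0 counts in 1 Uninjured Control mouse and 117 in the other, so these folds are not firm lower bounds. Between the treatments all 15 estimates were above 0 (median 0.29), and 8 had an unadjusted p below 0.05 in edgeR, of which none passed the limits. Over all 16091 genes tested 7830 estimates were above 0, and 7.03% of genes had such a p. The 15 genes were measured in the same mice, so their estimates are not separate results. Several of these genes are also expressed by macrophages and fibroblasts. Fibroblast markers summed to 59.1 to 668 TPM in SCI + Vehicle and 427 to 1116 TPM in SCI + Atorvastatin, and the part of other cells in these values was not tested.

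**Figure D5:**
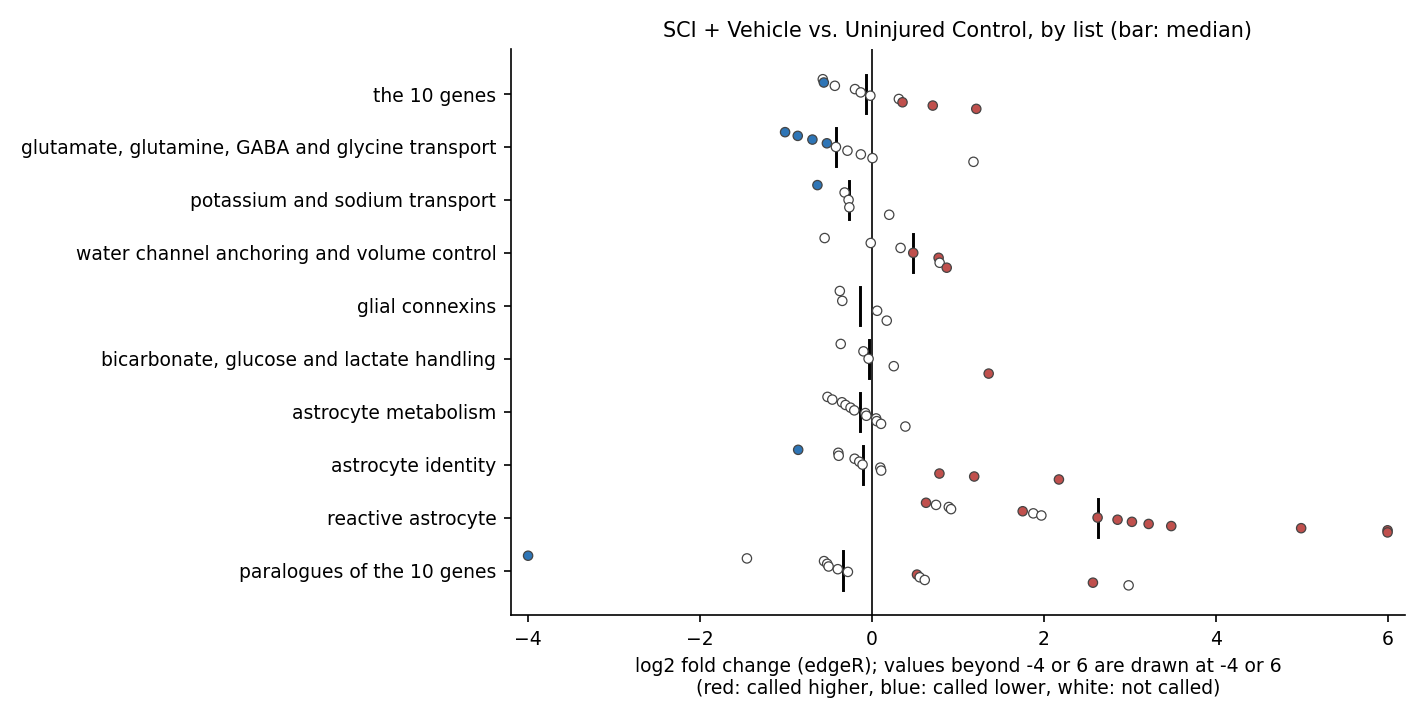
Log2 fold change in edgeR of each gene of the related lists in SCI + Vehicle vs. Uninjured Control, with 1 row per list, the 10 genes in the first row and a vertical bar for each median. Red points were called higher, blue lower and white not called, and values beyond -4 or 6 are drawn at -4 or 6. The reactive astrocyte row lies above 0 throughout, and the called genes in the 2 transport rows lie below 0.

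Of 12 close relatives of the 10 genes, 2 rose and 1 fell in SCI + Vehicle, and 2 rose and 2 fell in SCI + Atorvastatin. Aldh1l2, the mitochondrial counterpart of Aldh1l1, had 6.94 and 11.6 CPM in the Uninjured Control mice, 43.5 to 65.7 CPM in SCI + Vehicle and 50.1 to 64.7 CPM in SCI + Atorvastatin, with no overlap, and rose by 2.57 (SE 0.258, edgeR adjusted p = 0.000112) and 2.61 (SE 0.225, edgeR adjusted p = 3.27e-05). Slc4a10, a relative of Slc4a4 used by neurons, rose by 0.52 (SE 0.166, edgeR adjusted p = 0.0366) and 0.76 (SE 0.236, edgeR adjusted p = 0.0273), and was not called without Uninjured Control replicate 2. Leaving out replicate 1, 4 of the 12 rose and 3 fell in each comparison, and leaving out replicate 2, 3 rose, with 2 lower in SCI + Vehicle and 3 in SCI + Atorvastatin. Slc1a4, a neutral amino acid transporter, was at -0.56 and not called in SCI + Vehicle (edgeR adjusted p = 0.0712) and fell in SCI + Atorvastatin, at -0.64 (edgeR adjusted p = 0.026). A further 8 were not called in either comparison, with values in SCI + Vehicle of -0.50 for Slc1a1, -0.52 for Slc1a5, 0.56 for Slc1a6, -0.40 for Aldoa, 2.99 for Aqp1, -1.45 for Aqp9, 0.62 for Slc4a7 and -0.28 for Slc4a8.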

How the data were processed

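Per the labels, spinal cord RNA of 16 mice was made into stranded total RNA libraries. The submitters' processing notes name FastQC 0.12.1, Trimmomatic 0.38, STAR 2.5.4b, RSEM 1.3.1 and mm10. The authors deposited whole-number gene counts and TPM, which is normalized for transcript length. The step that made the counts and its strand setting are not given in the sources used here, so genes that overlap others are uncertain. TPM moves with every other gene in a library, and counts were scaled by TMM.

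The test was made on genes whose mean exceeded 1 TPM in 1 or more conditions, with edgeR 4.0.16 in R 4.3.3 (quasi-likelihood, 1 fit per pair of groups, Benjamini-Hochberg over all 16091 genes), which was tested on simulated data. Permutation tests of correlations were two-sided with 100000 resamples. Alternatives used DESeq2 1.42.0, limma 3.58.1, other filters and scales, and each mouse left out. Positions are GRCm38. Python 3.11.15, SciPy 1.17.1 and matplotlib 3.10.9 were used. The 10 genes and all lists were chosen with earlier results of these data known. The genes named are the 10, for each list the 2 genes called higher and the 2 called lower of smallest p in SCI + Vehicle vs. Uninjured Control, the connexins and relatives, and the 5 genes most alike. Values of a few list genes are not given here.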

Additional observations from a re-analysis of the deposited data

How the results depend on the processing

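In SCI + Vehicle vs. Uninjured Control, where 4 of the 10 genes were called, 7 were called with all 3 groups in 1 fit, 1 (Aqp4) in limma's voom with a quality weight for each group, and 0 with the replicate number as a block. In SCI + Atorvastatin vs. Uninjured Control, where 5 were called, voom and the replicate block each called 0. Over all genes voom called 17 higher and 115 lower in the first comparison and 18 and 127 in the second, against 3190 and 1536 and 4003 and 2256 in edgeR, and the replicate block called 15 and 1, and 0 and 0. The cause was not tested. In the replicate block only replicates 1 and 2 include an Uninjured Control mouse, so the other SCI mice do not inform the comparison with that group. The replicate numbers do not pair the mice, since same-numbered mice of the SCI groups correlated at only -0.15 to 0.09 in their deviations from the group means. With each mouse left out in turn, 3 to 6 of the 10 genes were called in the first comparison and 4 to 7 in the second, both ends set by the Uninjured Control mice. Without Uninjured Control replicate 1, 5399 genes were called higher and 2274 lower in the first comparison, and 6537 and 3169 in the second. Without replicate 2, 5246 and 2560, and 6390 and 3436 were. Between the treatments 0 of the 10 were called in every alternative, the paired one included, and over all genes 1 was called with all 3 groups in 1 fit and 37 in DESeq2 against 17. The split of calls in SCI + Vehicle moved to 1261 higher and 1137 lower where all 3 condition means exceeded 1 TPM, to 1331 and 1531 where no mouse had under 10 counts, and to 3763 and 689 in limma on log2(TPM + 1). In SCI + Atorvastatin these were 1774 and 1936, 1870 and 2170, and 5078 and 1238.

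Of 21 alternatives in SCI + Vehicle vs. Uninjured Control, Aqp4 was called in 20, Slc1a3 in 19, Kcnj10 in 17, Gja1 in 16, Aldoc in 6, Slc4a4 in 4 and Aldh1l1 in 2, and in SCI + Atorvastatin vs. Uninjured Control, Aqp4, Slc1a3, Kcnj10 and Gja1 were called in 19 each, Aldoc in 16, Slc4a4 in 3, Glul and Aldh1l1 in 2 each and Gjb6 in 1. These alternatives reuse the same mice and are not separate support. They include the fits without Uninjured Control replicate 1 or 2, whose calls are not support. Gja1 in SCI + Vehicle also lost its call without SCI + Vehicle replicate 5 (edgeR adjusted p = 0.0518). Signs turned only for genes not called in the reported comparison. Against the Uninjured Control group, Gjb6 in SCI + Vehicle was 0.00558 where all 3 condition means exceeded 1 TPM, 0.276 and 0.280 on log2(TPM + 1) and log2(TPM + 0.1), 0.0407 with the replicate block, and -0.100 to 0.0705 with a mouse left out (0.0188 without SCI + Vehicle replicate 4). Glul in SCI + Vehicle was 0.135 on both TPM scales and -0.297 to 0.0590 with a mouse left out. With a mouse left out Aldh1l1 was -1.06 to 0.17 in SCI + Vehicle and -1.03 to 0.21 in SCI + Atorvastatin. The higher end came without Uninjured Control replicate 1 and the lower without replicate 2. Between the treatments, Slc1a2 was 0.00882 and 0.00884 on the TPM scales, and with a mouse left out Gja1 was -0.0165 to 0.0267 and Aldh1l1 -0.0300 to 0.0502. On log2(TPM + 1), 8 of the 45 pairs correlated at an adjusted p below 0.05 against 0 in log2 CPM. The genes called and named outside the 10 kept their direction in every alternative that gave a value. Among the connexins and relatives not called, Gjb1, Gjb2, Gjc3, Slc1a5, Slc1a6 and Aqp9 turned in 1 or more of the alternatives in SCI + Vehicle, and Slc4a10 in SCI + Vehicle was called in 12 of 21.

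With 2 mice in the Uninjured Control group, each of them moves the values against it, and the depth of the 10 genes was not the limit, the lowest count being 687. No group of 7 mice held a value of the 10 genes far from the others (0 of 20 group and gene sets by Dixon's test), and groups of 2 cannot be tested. The p-values measure the spread between the mice sampled.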
